A study of Homo sapiens with 23 samples.

Results

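The 10 genes described here are transcription factors and splicing regulators that set where a carcinoma cell lies between an epithelial and a mesenchymal state. They are the repressors of epithelial genes ZEB1, ZEB2, SNAI1, SNAI2 and TWIST1, and the epithelial factors GRHL1, GRHL2, OVOL2, ESRP1 and ESRP2. They were chosen by symbol, each through its NCBI Gene ID, and all 10 were found among the 21658 genes of the table, with no filter on low values. RNA-seq had been done on 4 established human ovarian cancer cell lines, OV-90, Kuramochi, OVSAHO and EFO-21, each as the parental line and as a line made resistant to prexasertib, an inhibitor of the checkpoint kinase CHK1. The resistant lines had been raised by exposing cells to rising drug concentrations over a long time, and the labels name 1 resistant form for each line. There were 3 libraries per group and 2 for parental OV-90, 23 in all, which are named here by the library numbers 2 to 24 of the table. No sample was treated with another agent by its labels.

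Epithelial-mesenchymal transition (EMT) is the loss of cell junctions and apical-basal polarity and the gain of a motile, matrix-producing state. The ZEB, SNAI and TWIST proteins bind E-box motifs, and the ZEB and SNAI proteins bind CACCTG in the promoters of genes such as CDH1, which encodes E-cadherin, and repress them. Grainyhead-like factors (GRHL1, GRHL2) and the zinc finger protein OVOL2 keep junction genes on and hold ZEB1 down, and the epithelial splicing regulatory proteins ESRP1 and ESRP2 keep the epithelial exon choice of receptor and adhesion transcripts, among them FGFR2 and CD44.

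The values are deposited log2 expression values, quantile normalized across libraries, so a difference of 1 is a 2-fold change. They are not scaled to gene length, so levels were compared between libraries and not between genes. A gene was called where limma, a linear model test that shares the estimate of spread between genes, gave a p under 0.05 after adjustment over all genes and the difference was at least 2-fold. The lowest 10% of the values in a library, up to a limit of 1.70 to 1.87, are called the bottom. A difference that starts or ends there is a difference of deposited values and not a measured fold change. Profiles of libraries within a group correlated across genes with r between 0.971 and 0.988, except for the parental OV-90 pair at 0.952, whose median SD over genes, 0.26, was also above that of the other groups (0.11 to 0.22). The ovarian lineage markers PAX8, WT1 and SOX17 were low in OV-90 (parental means 2.10, 1.87 and 4.38), while PAX8 and SOX17 averaged 8.44 to 12.47 in the other parental lines and WT1 was at the bottom in EFO-21 (1.03).

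Sequence windows that hold the E-box of the repressors are shown for 3 genes that the results below turn on. ZEB1 is shown because, of the 3 among the 10 genes whose windows were searched, it is the one whose windows hold the motif. CRB3, an apical polarity gene, and CLDN7, a tight junction claudin, are shown because each has a window with 5 copies and was called lower in 3 resistant lines. They were thus chosen by both features, and whether copies go with falls was not tested. CLDN4, another claudin, has 0 copies in its window and was called lower in Kuramochi (-4.61) and OVSAHO (-2.86). TMEM30B has 4 copies in its window and was not called in Kuramochi (-0.65). The windows run from 250 bases before to 50 bases after a RefSeq start in GRCh38.p14, 5′ to 3′ on the gene's strand, and capitals mark CACCTG or its reverse complement CAGGTG.
ZEB1, chr10:31318966-31319265, plus strand: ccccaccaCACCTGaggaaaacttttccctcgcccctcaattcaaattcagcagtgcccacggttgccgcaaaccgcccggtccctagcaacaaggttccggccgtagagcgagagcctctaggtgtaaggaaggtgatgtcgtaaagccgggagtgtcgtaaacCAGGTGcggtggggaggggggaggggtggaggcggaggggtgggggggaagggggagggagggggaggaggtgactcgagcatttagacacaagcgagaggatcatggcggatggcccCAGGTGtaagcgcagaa
CLDN7, chr17:7262429-7262728, minus strand: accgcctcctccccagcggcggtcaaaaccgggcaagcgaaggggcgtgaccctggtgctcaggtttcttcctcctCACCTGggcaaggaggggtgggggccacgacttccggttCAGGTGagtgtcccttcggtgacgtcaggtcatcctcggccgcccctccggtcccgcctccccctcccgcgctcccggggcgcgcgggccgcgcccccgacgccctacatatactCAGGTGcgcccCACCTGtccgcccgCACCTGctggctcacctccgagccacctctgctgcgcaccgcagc
CRB3, chr19:6464021-6464320, plus strand: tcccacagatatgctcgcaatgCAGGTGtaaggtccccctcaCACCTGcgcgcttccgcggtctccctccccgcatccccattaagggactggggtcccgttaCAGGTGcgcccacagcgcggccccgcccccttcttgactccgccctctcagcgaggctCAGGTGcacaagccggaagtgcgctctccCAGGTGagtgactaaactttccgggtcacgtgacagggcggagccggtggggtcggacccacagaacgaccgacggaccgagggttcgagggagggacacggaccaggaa
In the CLDN7 window the copies start at positions -174, -135, -20, -9 and 6 from the start of transcription, so the last lies within the transcript. The motif, searched on both strands, was in 20.6% of 35116 windows, and 3 or more copies were in 0.64%. By gene, 24.1% of 27305 genes had it in at least 1 window, against 12 of 16 genes with a window (75%) in a list of epithelial junction and polarity genes. Among the 10 factors, ZEB1, ZEB2 and GRHL1 had windows and ZEB1 alone held the motif, in 2 of its 7 windows. A match is a description of the letters and not of a bound site.

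Of 40 comparisons, 10 genes in 4 lines, 6 were called higher and 10 lower in the resistant form. The repressors had 5 of 20 called higher and 1 lower, and the epithelial factors had 1 of 20 called higher and 9 lower. In OV-90, 1 of the 10 genes was higher and 3 were lower, against 9.50% and 6.56% of all genes. In Kuramochi, 2 were higher and 4 lower, against 11.8% and 10.6%. In OVSAHO, 2 were higher and 1 lower, against 3.93% and 3.83%. In EFO-21, 1 was higher and 2 were lower, against 7.11% and 7.15%. The median change over the 10 genes was -0.06 in OV-90, 0.23 in Kuramochi, -0.29 in OVSAHO and -0.03 in EFO-21, beside medians over all genes of -0.06, -0.02, 0.00 and 0.01. The 4 calls in OV-90 rest on 2 parental libraries. None of them held without resistant library 13, 14 or 15, whereas without parental library 2 there were 2 calls and without library 3 there were 6. A bulk library cannot tell fewer cells with a transcript from less of it per cell.

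**Figure D1:**
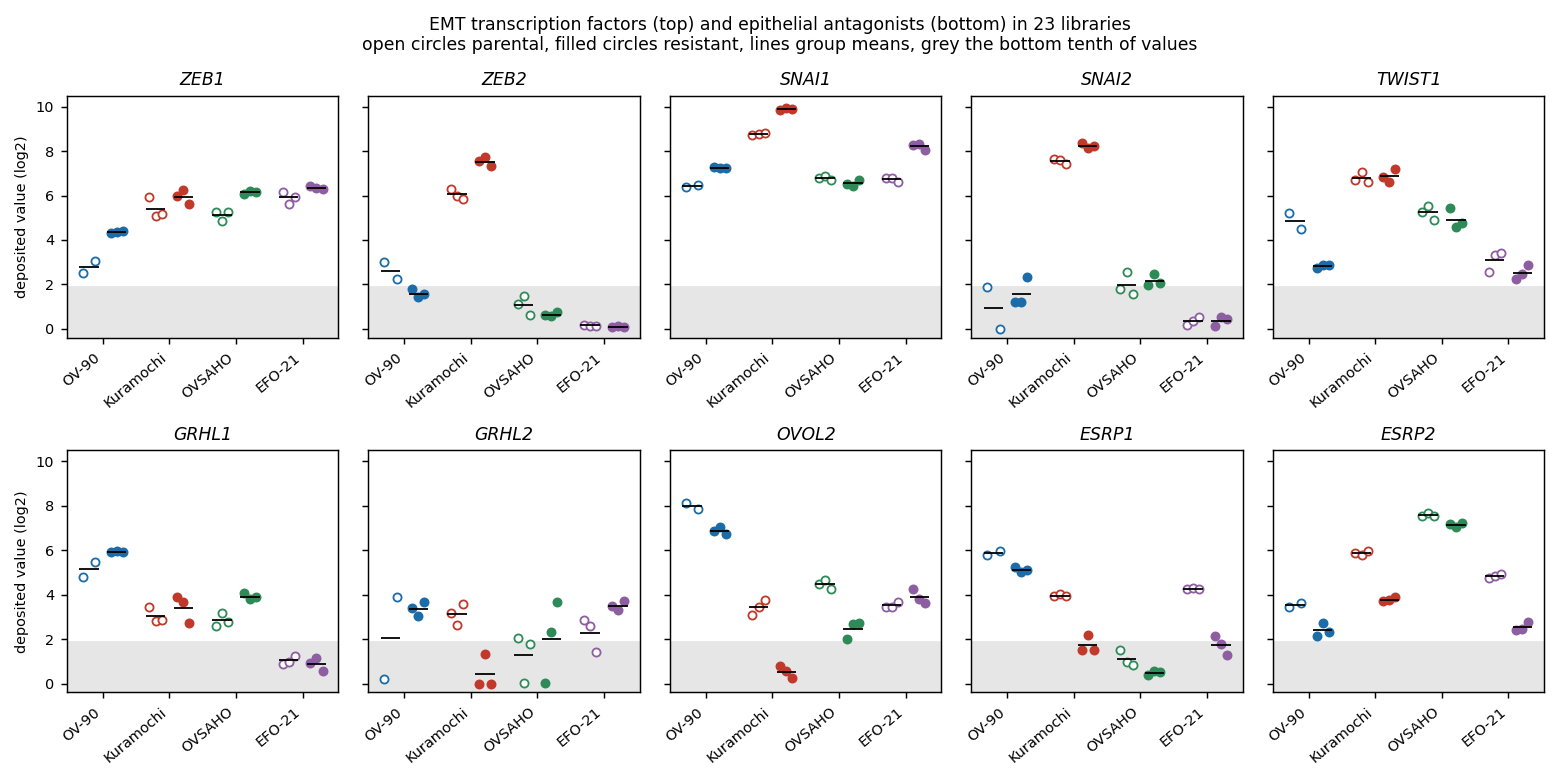
Deposited log2 values (y axis) of the 10 genes in 23 libraries, by line (x axis), with open circles for parental and filled circles for resistant libraries, horizontal lines for group means and grey for the range up to the highest 10th percentile of a library, 1.87. ZEB2 and SNAI2 lie above 5 in Kuramochi libraries alone, and OVOL2 falls into the grey range in resistant Kuramochi.

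ZEB1, a zinc finger repressor of CDH1, was called higher in 2 resistant lines, and its estimate was above 0 in all 4. In OV-90 it stood at 2.50 and 3.03 in the parental libraries and at 4.30, 4.37 and 4.42 in the resistant ones, a rise of 1.60 (SE 0.24, adjusted p = 0.0176). The groups did not overlap, but the call was lost without resistant library 13, 14 or 15 (adjusted p 0.0741 to 0.0859). In OVSAHO the parental values of 5.25, 4.84 and 5.28 lay below the resistant values of 6.09, 6.20 and 6.14, a rise of 1.02 (SE 0.14, adjusted p = 0.0038). That rise was just past the 2-fold limit, and it fell to 0.88 without library 8 and to 0.99 without library 20. In Kuramochi the parental values were 5.92, 5.08 and 5.15 and the resistant ones 5.99, 6.23 and 5.63, which overlapped (0.56, 95% confidence interval -0.11 to 1.24). EFO-21 had 6.17, 5.64 and 5.95 in parental and 6.43, 6.32 and 6.29 in resistant libraries, a difference of 0.43 (0.07 to 0.79) that missed the threshold with an adjusted p of 0.0531. The resistant form of OV-90 thus stood below the lowest parental library of every other line. The ZEB1 value rests on 26 exons, and the antisense gene ZEB1-AS1, whose exons overlap ZEB1, was called in no line (-0.45 to -0.07).

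ZEB2, the second ZEB repressor, was measured above the bottom in parental OV-90 and in Kuramochi alone. In Kuramochi it stood at 6.29, 5.99 and 5.86 in parental and 7.56, 7.72 and 7.31 in resistant libraries, a rise of 1.48 (SE 0.16, adjusted p = 0.000585) with no overlap. Parental OV-90 had 3.01 and 2.23, and the resistant libraries were all at the bottom, at 1.77, 1.41 and 1.55. That difference of -1.04 (95% confidence interval -1.82 to -0.26) had an adjusted p of 0.0524. It was called without parental library 3, at -1.43 (adjusted p = 0.0113). OVSAHO had 1.13, 1.49 and 0.62 in parental and 0.61, 0.56 and 0.75 in resistant libraries, and EFO-21 had 0.13 to 0.17 and 0.06 to 0.11. All 12 of these libraries lay at the bottom, so no fold change could be given for either line.

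SNAI1, the Snail repressor, was called higher in Kuramochi and EFO-21, with narrow spreads. Kuramochi rose from 8.71, 8.77 and 8.82 to 9.83, 9.93 and 9.89, by 1.12 (SE 0.06, adjusted p = 3.59e-05). EFO-21 rose from 6.78, 6.80 and 6.61 to 8.28, 8.31 and 8.04, by 1.48 (SE 0.09, adjusted p = 0.000115). Both sets of libraries were separated by far more than the spread within a group. In OV-90 the parental values of 6.40 and 6.48 lay below the resistant 7.28, 7.24 and 7.22, and the difference of 0.81 (0.58 to 1.03) passed the adjusted p (0.0108) but not the 2-fold limit. OVSAHO was the exception, with 6.78, 6.90 and 6.71 in parental and 6.51, 6.43 and 6.72 in resistant libraries, overlapping groups and an estimate below 0 (-0.24, -0.49 to 0.00). SNAI1 had the largest F value of the 10 genes for a change that differed among the lines, 78.7 (adjusted p = 3.68e-09).

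SNAI2, the Slug repressor, was called in no line. It was high in Kuramochi, where the parental libraries held 7.65, 7.60 and 7.42 and the resistant ones 8.36, 8.14 and 8.24, a difference of 0.69 (0.47 to 0.92) that passed the adjusted p (0.00152) but not the 2-fold limit. The other lines were at or near the bottom. OV-90 had 1.89 and 0.00 in parental and 1.19, 1.22 and 2.32 in resistant libraries, and OVSAHO had 1.80, 2.57 and 1.56 and then 1.95, 2.48 and 2.06. EFO-21 lay at 0.18 to 0.54 and 0.14 to 0.51, with all 6 libraries at the bottom. In these 3 lines the confidence intervals included 0, and in OV-90 the interval ran from -1.17 to 2.43.

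TWIST1, a basic helix-loop-helix factor, was the repressor that moved down. In OV-90 it fell from 5.21 and 4.49 to 2.74, 2.85 and 2.88, by 2.02 (SE 0.28, adjusted p = 0.0155). The groups did not overlap, and the call was lost without resistant library 13, 14 or 15 (adjusted p 0.0698 to 0.0802). Kuramochi had 6.71, 7.05 and 6.62 in parental and 6.83, 6.61 and 7.19 in resistant libraries, which overlapped (0.08, 95% confidence interval -0.37 to 0.53). OVSAHO had 5.28, 5.55 and 4.90, then 5.42, 4.56 and 4.74, with a difference of -0.34 (-1.03 to 0.35). EFO-21 had 2.54, 3.33 and 3.43, then 2.22, 2.45 and 2.86, with a difference of -0.59 (-1.34 to 0.16). In OV-90, TWIST1 and ZEB1 were therefore called in opposite directions in the same libraries.

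GRHL1, a grainyhead-like activator of junction genes, was the epithelial factor called higher. OVSAHO rose from 2.61, 3.17 and 2.79 to 4.06, 3.81 and 3.88, by 1.06 (SE 0.20, adjusted p = 0.0107). The libraries did not overlap, but the rise was 0.94 without library 7 and 0.99 without library 19, under the 2-fold limit. OV-90 had 4.79 and 5.49 in parental and 5.91, 5.95 and 5.92 in resistant libraries, a difference of 0.79 (95% confidence interval 0.15 to 1.43) with an adjusted p of 0.0618. Without parental library 3 it was called, at 1.14 (adjusted p = 0.00528). Kuramochi had 3.44, 2.81 and 2.86, then 3.88, 3.65 and 2.72, which overlapped (0.38, -0.52 to 1.27). In EFO-21 all 6 libraries lay at the bottom, between 0.58 and 1.26.

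GRHL2, a grainyhead-like factor that ZEB1 represses in turn, has a value from 1 exon, as 4703 genes of the table have, and it varied widely between replicates. Kuramochi held 3.19, 2.64 and 3.60 in parental libraries and 0.00, 1.32 and 0.00 in resistant ones, a difference of -2.71 (SE 0.45, adjusted p = 0.00346) that ended at the bottom in all 3. Parental OV-90 held 0.22 and 3.88, so that a single library decided the comparison with the resistant 3.41, 3.03 and 3.66. The difference was 1.32 (-1.57 to 4.21), 3.15 without library 3 (adjusted p = 0.00576) and -0.51 without library 2. OVSAHO spanned 0.02 to 2.03 in parental and 0.01 to 3.68 in resistant libraries. EFO-21 had 2.87, 2.59 and 1.41, then 3.47, 3.29 and 3.71, no overlap, and a difference of 1.20 (0.21 to 2.18) with an adjusted p of 0.0507, which was called without library 10 (1.49, adjusted p = 0.0378).

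OVOL2, a repressor of ZEB1 that keeps epithelial identity, fell in 3 lines. OV-90, where it was highest, went from 8.15 and 7.84 to 6.89, 7.03 and 6.74, a fall of 1.11 (SE 0.15, adjusted p = 0.0147). That call was lost without any 1 of libraries 13, 14 and 15 (adjusted p 0.0587 to 0.0774), and without library 2 the difference was -0.95. OVSAHO went from 4.48, 4.67 and 4.24 to 2.00, 2.67 and 2.71, a fall of 2.01 (SE 0.25, adjusted p = 0.00277). Kuramochi went from 3.08, 3.45 and 3.75 to 0.80, 0.56 and 0.24, all at the bottom, a difference of -2.89 (SE 0.26, adjusted p = 0.00029). In each of these lines every resistant library lay below every parental library. EFO-21 did not share this, with 3.46, 3.46 and 3.67 in parental and 4.27, 3.81 and 3.61 in resistant libraries and a difference of 0.37 (-0.16 to 0.89). SNX5, whose exons overlap OVOL2, differed by -0.26 to 0.12 in the other lines and by -0.95 in Kuramochi (adjusted p = 0.000386, under 2-fold), and whether reads were assigned by strand is not given in the sources used here.

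ESRP1, an RNA-binding protein that enforces epithelial splicing, fell in Kuramochi and EFO-21. Kuramochi held 3.92, 4.01 and 3.95 in parental libraries and 1.49, 2.17 and 1.52 in resistant ones, a difference of -2.24 (SE 0.25, adjusted p = 0.000675). EFO-21 held 4.25, 4.32 and 4.26, then 2.14, 1.77 and 1.27, a difference of -2.55 (SE 0.25, adjusted p = 0.00054). In both lines 2 of the 3 resistant libraries were at the bottom, and no library overlapped with the parental group. OV-90 had 5.80 and 5.95, then 5.25, 5.01 and 5.09, a difference of -0.75 (-1.17 to -0.34) that passed the adjusted p (0.0287) but not the 2-fold limit. OVSAHO was at the bottom in all 6 libraries, with 1.51, 0.97 and 0.83 in parental and 0.37, 0.56 and 0.53 in resistant ones.

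ESRP2, the paralog of ESRP1, fell in 3 lines, and its parental and resistant libraries overlapped in none of the 4. Kuramochi went from 5.89, 5.79 and 5.96 to 3.72, 3.75 and 3.88, a fall of 2.09 (SE 0.15, adjusted p = 0.000108). EFO-21 went from 4.75, 4.84 and 4.93 to 2.41, 2.44 and 2.76, a fall of 2.30 (SE 0.17, adjusted p = 0.000186). OV-90 went from 3.45 and 3.64 to 2.16, 2.72 and 2.30, a fall of 1.15 (SE 0.25, adjusted p = 0.0304). The OV-90 call was lost without any 1 of the 5 libraries (adjusted p 0.0517 to 0.11), whereas in Kuramochi and EFO-21 it was kept by each alternative that tested the gene. In OVSAHO the parental values of 7.54, 7.70 and 7.56 lay above the resistant 7.19, 7.04 and 7.21, and the difference of -0.46 (-0.63 to -0.29) passed the adjusted p (0.00511) but not the 2-fold limit. OVSAHO, with ESRP1 at the bottom, was the line where ESRP2 was highest and where its estimate was smallest. NFATC3, whose exons overlap ESRP2, was called in no line (-0.16 to 0.32).

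**Figure D2:**
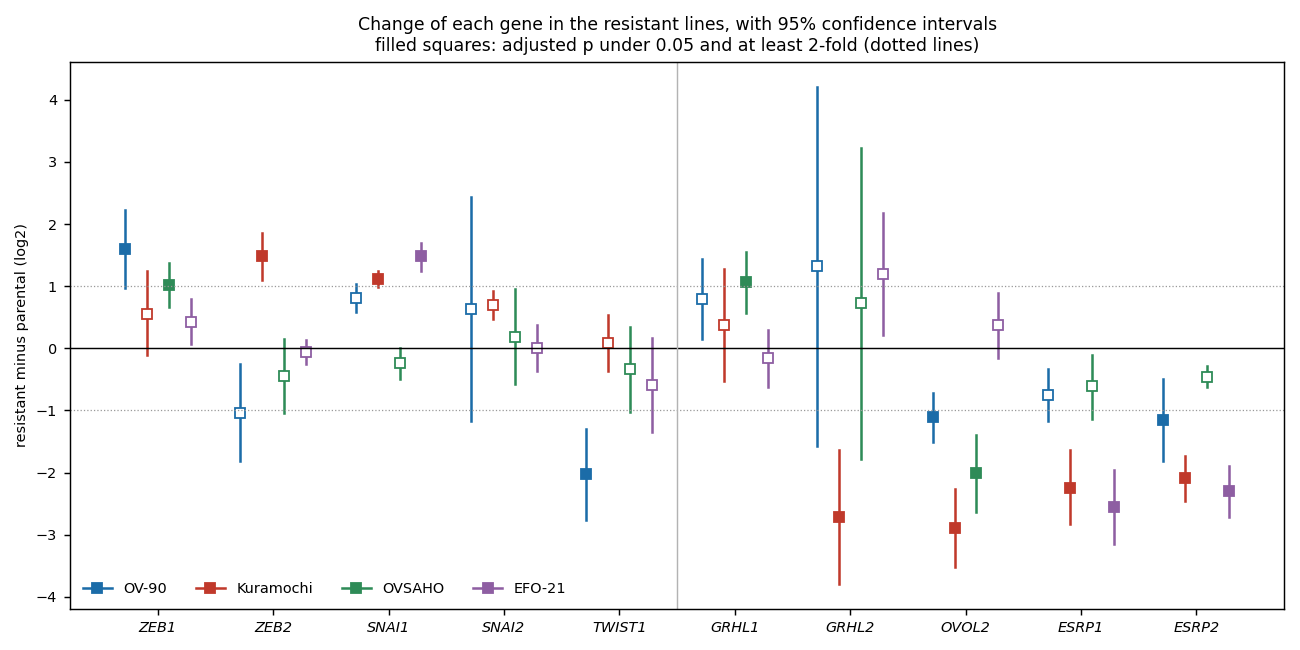
Resistant minus parental difference (y axis, log2) of each gene (x axis) in the 4 lines by colour, with bars for 95% confidence intervals and filled squares for genes with an adjusted p under 0.05 and at least a 2-fold change. OVOL2, ESRP1 and ESRP2 are below 0 in all lines except for OVOL2 in EFO-21 (0.37), and the GRHL2 intervals in OV-90 and OVSAHO are the widest.

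Whether a change differed among the lines was tested for each gene with limma's F test over all 23 libraries. It did for 9 of the 10 genes, against 75.1% of all genes, so that share says little about these genes in particular. The F value was above 30 for SNAI1, OVOL2 (36.7, adjusted p = 5.8e-07) and ESRP2 (37.9, adjusted p = 4.71e-07). SNAI2 was the exception (adjusted p = 0.565). For GRHL1 the adjusted p was 0.0455, and the call was lost when any 1 of 14 of the 23 libraries was left out (up to 0.108).

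Before resistance the lines already differed in these genes, as they did in 37.6% to 50.2% of all genes. A count near that share says little about these genes in particular. Of 60 comparisons, 10 genes in 6 pairs of parental lines, 40 were called, and every pair shares libraries with others. Between OV-90 and Kuramochi 9 of 10 genes differed, against 47.0% of all genes. OV-90 differed from OVSAHO in 6 (48.1%) and from EFO-21 in 7 (50.2%). Kuramochi differed from OVSAHO in 7 (37.6%) and from EFO-21 in 6 (41.3%), and OVSAHO from EFO-21 in 5 (44.2%). ESRP2 differed in all 6 pairs and GRHL2 in none.

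Parental OV-90 had the lowest ZEB1 mean, 2.77 ± 0.38 (SD, n = 2), which was 2.35 to 3.15 below the other parental lines and was called in each comparison. OVSAHO (5.12 ± 0.25, n = 3), Kuramochi (5.38 ± 0.47) and EFO-21 (5.92 ± 0.27) followed in that order, and no difference among these 3 was called. For OVOL2 the highest mean was in OV-90. OV-90 had 7.99 ± 0.22, OVSAHO 4.47 ± 0.21, EFO-21 3.53 ± 0.13 and Kuramochi 3.43 ± 0.33, and OV-90 exceeded the other lines by 3.53 to 4.57. OVSAHO and EFO-21 were not called apart (0.94, under 2-fold), nor were EFO-21 and Kuramochi (-0.10, 95% confidence interval -0.56 to 0.36, for Kuramochi minus EFO-21). The difference of Kuramochi from OVSAHO, -1.04, was called, but it was -0.87 without library 4 and -0.94 without library 8.

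ZEB2, SNAI1, SNAI2 and TWIST1 had their highest parental means in Kuramochi, and each was called against every other line. SNAI1 was 8.77 ± 0.05 there and 6.44 to 6.80 in the other 3 lines, among which no pair was called. SNAI2 was 7.56 ± 0.12 in Kuramochi and 0.36 to 1.98 elsewhere, and ZEB2 was 6.05 ± 0.22 against 0.15 to 2.62. TWIST1 ran in the order Kuramochi (6.79 ± 0.23), OVSAHO (5.24 ± 0.33), OV-90 (4.85 ± 0.51) and EFO-21 (3.10 ± 0.49), and of the neighbours in that order OVSAHO and OV-90 were not called apart (-0.40, -1.12 to 0.33, for OV-90 minus OVSAHO).

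GRHL1 and ESRP1 were highest in OV-90. GRHL1 averaged 5.14 ± 0.50 there, 3.04 ± 0.35 in Kuramochi, 2.86 ± 0.28 in OVSAHO and 1.04 ± 0.20 in EFO-21, the last at the bottom, and Kuramochi and OVSAHO were not called apart (0.18, -0.46 to 0.82). ESRP1 averaged 5.87 ± 0.11 in OV-90, 4.28 ± 0.03 in EFO-21, 3.96 ± 0.05 in Kuramochi and 1.10 ± 0.36 in OVSAHO, where the difference of EFO-21 from Kuramochi was not called (-0.31, -0.77 to 0.15, for Kuramochi minus EFO-21). ESRP2 ran the opposite way, from OVSAHO (7.60 ± 0.09) through Kuramochi (5.88 ± 0.08) and EFO-21 (4.84 ± 0.09) to OV-90 (3.55 ± 0.14), with each neighbour called. The step from Kuramochi to EFO-21, 1.04, was 1.0 without library 6 and 0.99 without library 10, just under the 2-fold limit. OV-90 and OVSAHO thus differed by 4.77 for ESRP1 and by -4.06 for ESRP2 (OV-90 minus OVSAHO), in opposite directions.

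Across the 8 group means, which share lines and libraries, ZEB2 and SNAI2 correlated with r = 0.95, ZEB1 and OVOL2 with r = -0.85, ESRP1 and OVOL2 with r = 0.72 and ESRP1 and ESRP2 with r = -0.52. ZEB1 correlated with ZEB2 at -0.05 and with ESRP2 at 0.24, and OVOL2 with ESRP2 at -0.33. These are descriptions over 8 points, and single lines stand apart in them. ZEB2 averaged 6.05 and 7.53 and SNAI2 7.56 and 8.25 in Kuramochi, against at most 2.62 and 2.16 elsewhere. In OV-90 ZEB1 averaged 2.77 and 4.36 and OVOL2 7.99 and 6.89. Elsewhere ZEB1 was at least 5.12 and OVOL2 at most 4.47. No r was calculated without a line. Among 12643 genes whose group means spanned at least 2, the nearest to OVOL2 were DDRGK1 (r = 0.989), the tight junction gene MARVELD3 (0.973) and the membrane protease gene PRSS8 (0.970), and the most opposed was CYLD (-0.975). For ESRP2 the most opposed was MATCAP1 (r = -0.985), the receptor gene FGFR3 was among the 3 most opposed (-0.979), and OTOF was the nearest (0.985). For ZEB1 the nearest was SNRK-AS1 (0.987), the most opposed was POM121L10P (-0.992), and the chloride channel gene ANO1 was among the 3 most opposed (-0.983). SNAI2 was most like NPR3 (0.996) and ZEB2 most like SIM1 and SLC17A9 (both 0.990). The nearest genes were TWIST1 with DNAJC21 (0.975), SNAI1 with FLRT1 (0.967), GRHL1 with CD36 (0.974), GRHL2 with ACKR3 (0.959) and ESRP1 with GNGT1 and POMP (both 0.974). All of these are extremes of 12643 genes over 8 points, so a high r says little about any 1 of them.

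Other genes of the epithelial and mesenchymal states were followed through lists, and the calls in OV-90 rest on the same 2 parental libraries as above. Whether the 10 factors act on the listed genes in these lines was not tested. List counts are to be read beside the shares of all genes called higher and lower. These were 11.8% and 10.6% in Kuramochi, 3.93% and 3.83% in OVSAHO, 7.11% and 7.15% in EFO-21 and 9.50% and 6.56% in OV-90. Of 28 epithelial junction and polarity genes, 20 were lower and 2 higher in resistant Kuramochi (median -1.94), 11 and 0 in OVSAHO (median -0.82), 7 and 1 in EFO-21 (median -0.51) and 4 and 1 in OV-90 (median -0.40). CLDN7 fell by 4.0 in Kuramochi, 2.56 in OVSAHO and 1.48 in EFO-21, and in OV-90 its difference was 0.59 (adjusted p = 0.121). CRB3, which was picked with its values in view, fell in OV-90 (-1.39), Kuramochi (-1.40) and OVSAHO (-1.14) and differed by 0.44 in EFO-21. Its resistant mean in Kuramochi, 0.72, was at the bottom. ST14, which encodes the membrane protease matriptase, fell in Kuramochi (-4.97), OVSAHO (-3.56) and EFO-21 (-1.46), with resistant means of 0.77 and 0.52 at the bottom in the first pair. DSP, the desmosomal plaque protein desmoplakin, fell in Kuramochi (-4.53) and EFO-21 (-1.94) and rose in OV-90 (1.81).

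CDH1, the E-cadherin gene, fell in Kuramochi from a parental mean of 4.62 to 1.61, at the bottom (-3.0, adjusted p = 0.000117) and in OVSAHO from 8.14 to 6.47 (-1.67, adjusted p = 8.97e-05). In EFO-21, where SNAI1 rose and both ESRP genes fell, CDH1 rose from 4.65 to 6.03 (1.39, adjusted p = 0.000358). In OV-90, where ZEB1 was called higher, CDH1 went from 8.56 to 9.21 and was not called (adjusted p = 0.191). OVSAHO, with ZEB1 called higher, OVOL2 called lower and CDH1 down, held no called change of SNAI1, ESRP1 or ESRP2.

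**Figure D3:**
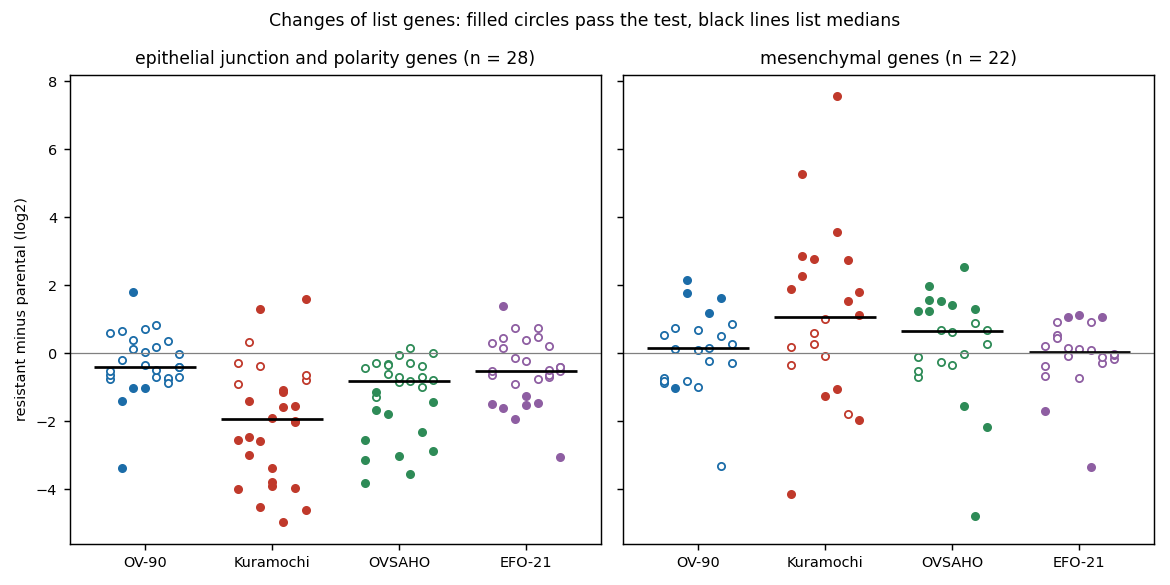
Resistant minus parental differences (y axis, log2) of 28 epithelial junction and polarity genes (left) and 22 mesenchymal genes (right) in the 4 lines (x axis), with filled circles for genes that passed the test and black lines for list medians. The epithelial median is lowest in Kuramochi (-1.94), and the mesenchymal median is highest there (1.07).

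Of 22 mesenchymal genes, 11 were higher and 4 lower in resistant Kuramochi (median 1.07), 8 and 3 in OVSAHO (median 0.66), 3 and 2 in EFO-21 (median 0.04) and 4 and 1 in OV-90 (median 0.15). FN1, which encodes fibronectin, rose in all 4 lines, by 2.78 in Kuramochi, 1.78 in OV-90, 1.53 in OVSAHO and 1.07 in EFO-21. LOX, a collagen cross-linking enzyme, rose in Kuramochi (3.57), OVSAHO (2.54) and OV-90 (1.18). THBS1, thrombospondin, rose in the same 3 lines, by 2.75, 1.30 and 1.63. COL6A1, a collagen VI chain, rose in Kuramochi (2.85) and OVSAHO (1.99) and fell in OV-90 (-1.03).

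Other factors of the same kind were counted beside the 10. Of 14 further EMT transcription factors, 6 were higher and 1 lower in Kuramochi, beside 11.8% and 10.6% of all genes. In OVSAHO 5 were higher and 0 lower, beside 3.93% and 3.83%. In OV-90 the counts were 4 and 1 (9.50% and 6.56%), and in EFO-21 they were 2 and 3 (7.11% and 7.15%). The forkhead factor FOXC2 rose by 3.41 in Kuramochi, 3.55 in OVSAHO and 1.01 in EFO-21, and the homeobox factor MSX2 by 1.13, 3.34 and 1.24, with both at the bottom in parental OVSAHO (1.28 and 1.46). TWIST2, the paralog of TWIST1, rose in Kuramochi (4.16) and OVSAHO (1.33), where TWIST1 was not called. FOXQ1 rose in Kuramochi (2.53) and OVSAHO (1.19) and fell in EFO-21 (-1.49). Of 15 further epithelial regulators, 6 were lower and 1 higher in Kuramochi, 4 and 1 in OVSAHO, 4 and 4 in OV-90 and 1 and 0 in EFO-21. The ETS factors EHF and ELF3 fell in Kuramochi (-4.07 and -3.43) and OVSAHO (-2.31 and -1.05), and EHF fell in OV-90 (-1.33). TP63 fell in Kuramochi (-2.22), OVSAHO (-2.69) and OV-90 (-1.05). The resistant means of EHF in Kuramochi (1.05) and of TP63 in OVSAHO (1.57) were at the bottom.

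Markers of the tissue of origin were counted in the same way. Of 10 ovarian epithelial markers, 7 were lower in resistant Kuramochi and 4 in OVSAHO, and their median change was -0.25 in OV-90 and -0.36 in EFO-21. Their summed level (log2) lay between 13.76 and 13.93 in parental and between 12.69 and 12.75 in resistant Kuramochi. In OVSAHO it lay between 13.45 and 13.54 and then between 13.11 and 13.24. Some of these markers, EPCAM and KRT19 among them, are also in the list of epithelial junction and polarity genes. In OVSAHO the lineage markers PAX8, SOX17 and WT1 stayed within 2-fold, from means of 9.02, 11.92 and 8.25 to 9.03, 12.29 and 7.68. In Kuramochi they went from 9.37, 12.36 and 7.96 to 8.70, 11.29 and 5.72. Of 9 fibroblast and smooth muscle markers, 2 were higher and 4 lower in Kuramochi and 3 and 3 in OVSAHO, with COL1A2 at the bottom in both resistant lines. The matrix proteoglycan gene LUM rose in OVSAHO from a mean of 2.03 to 6.76 and in Kuramochi from 2.24 to 4.28, and DCN rose in OVSAHO from 2.05 to 6.27 and fell in Kuramochi from 3.53 to 1.01, at the bottom. Of 7 leukocyte markers, 5 were lower in OVSAHO (summed level 8.06 to 8.68 in parental and 6.83 to 6.96 in resistant libraries), where PTPRC and CD3E were at the bottom in resistant libraries. The summed leukocyte level was higher in resistant EFO-21 (8.97 to 9.15, then 9.89 to 9.98) and Kuramochi (6.37 to 7.69, then 7.71 to 7.99), where CD68, a macrophage marker, rose from 8.45 to 9.72 and from 4.18 to 6.97. Of 5 endothelial markers, 1 was higher and 1 lower in OV-90, 1 and 2 in Kuramochi, 1 was higher in OVSAHO and 1 was lower in EFO-21, and 4 were at the bottom in both forms of OVSAHO. TEK rose from 2.92 to 6.33 and PECAM1 fell from 6.35 to 3.46 in OV-90, and CDH5 rose from 4.75 to 7.62 in Kuramochi. The part of these markers in the changes of ZEB1, OVOL2 and the ESRP genes was not tested.

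The position of the genes was set beside their neighbours, a comparison chosen after the values were seen. ESRP2 lies at chr16:68262936-68272005 (GRCh37, minus strand), and CDH1 and CDH3 are among the 23 genes of the table within 500 kb. In EFO-21 ESRP2 fell by 2.30 while the neighbours lay between -0.91 (CDH3) and 1.39 (CDH1), with a median of 0.21. In Kuramochi the neighbours had a median of 0.20, and CDH1 (-3.0) alone was below ESRP2 (-2.09). In OV-90 the neighbours ran from -1.18 to 1.10, a range that included ESRP2 (-1.15).

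**Figure D4:**
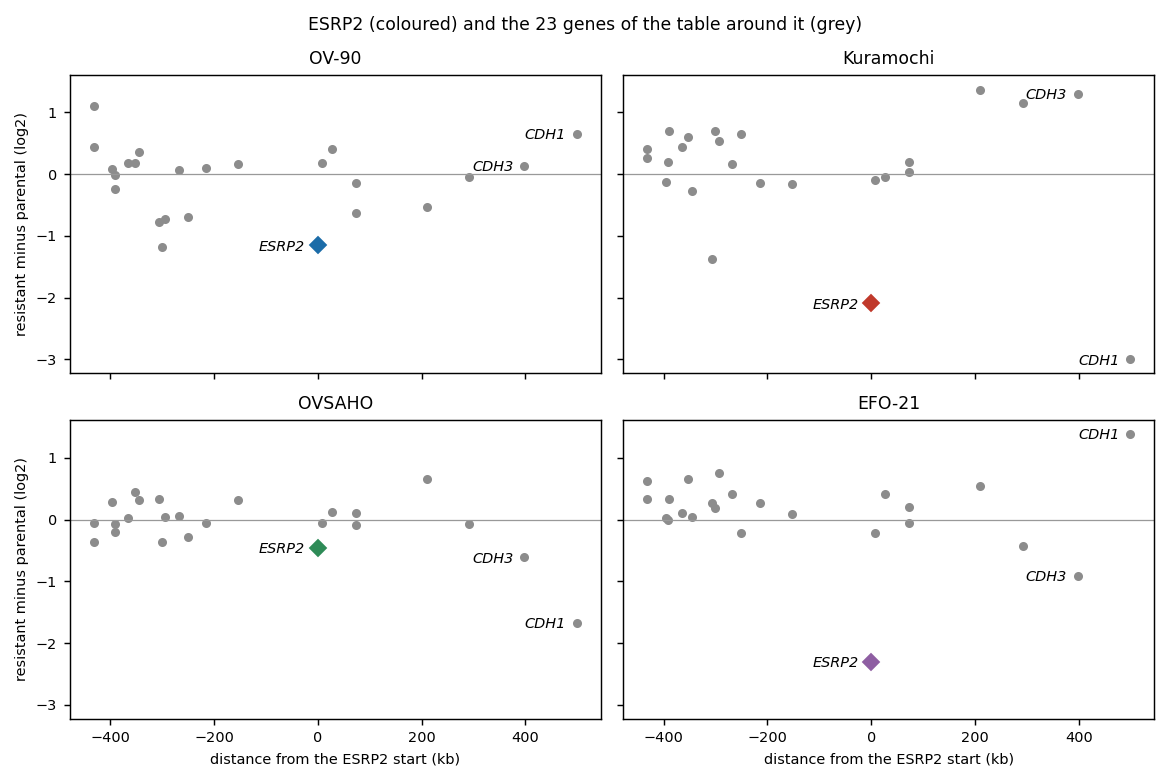
Resistant minus parental difference (y axis, log2) of ESRP2 (coloured diamond) and of 23 genes around it (grey circles) by distance from the ESRP2 start (x axis, kb), in the 4 lines. CDH1 lies below 0 in Kuramochi (-3.0) and OVSAHO (-1.67) and above 0 in EFO-21 (1.39) and OV-90 (0.65), and ESRP2 lies below all its neighbours in EFO-21.

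OVOL2 lies at chr20:17937623-18039832 (GRCh37, minus strand) among 15 such genes, whose median change in Kuramochi was -0.71, with 4 called lower and 0 higher, beside -2.89 for OVOL2. In OVSAHO their median was -0.31, beside -2.01. In OV-90 their median was -0.22, 2 were called lower, and the lowest, BFSP1 at -1.47, was below OVOL2 (-1.11). SNAI1 lies at chr20:48599517-48605423 (plus strand), and the median of its 17 neighbours was -0.12 in Kuramochi and in EFO-21, where SNAI1 rose. ESRP1 lies at chr8:95653302-95719694 (plus strand). In OV-90 its 13 neighbours had a median of 0.62 with 6 called higher, beside -0.75 for ESRP1, and in EFO-21 they had a median of -0.27 and a range of -0.96 to 0.40, beside -2.55.

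The other 6 genes had 0 to 12 neighbours. ZEB1 (chr10:31607424-31818742, plus strand) had 4, which in OVSAHO lay between -0.62 and 0.16 beside a rise of 1.02. In OV-90 their median was 0.44, and KIF5B was called higher, at 1.89, beside 1.60 for ZEB1. GRHL1 (chr2:10091822-10142405, plus strand) had 12, with a median of 0.57 in OVSAHO beside 1.06. GRHL2 (chr8:102504667-102681954, plus strand) had 3, with a median of 0.01 in Kuramochi beside -2.71 for GRHL2. They ran there from -4.80 (NCALD) to 0.29. TWIST1 (chr7:19060614-19157259, minus strand) had HDAC9 alone, at 0.79 in OV-90 beside -2.02, SNAI2 (chr8:49830157-49834299, minus strand) had 1 and ZEB2 (chr2:145121931-145278624, minus strand) had 0.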

How the data were processed

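RNA of 23 libraries had been prepared by the authors with a stranded mRNA kit. Per the labels and the study's methods, reads were aligned to GRCh37/hg19, exons with few reads were left out, and the authors derived 1 value per gene from its exons, by a robust linear model for 16448 genes and as a mean of log2 exon values for 5210. The deposited values are log2 values, quantile normalized, with no read counts, so the depth of a library and its counting error are unknown. Quantile normalization hides any shift shared by most genes. The column with the number of exons was used to describe values.

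Columns name the line and form, and 0 columns belonged to other samples. Labels call samples biological replicates, and nothing says that they came from separate derivations, so p-values measure the spread between these samples. Symbols came from a RefSeq table (GRCh38.p14, names only, 20745 of 21658 IDs matched), positions from GENCODE annotation lifted to GRCh37, and promoter windows from RefSeq in GRCh38.p14, where 3 of the 10 genes had 1 or more outside chromosome 8. Windows on chromosome 8 were left out for the 10 genes and the epithelial list, so SNAI2, GRHL2 and ESRP1 were not searched. SNAI1, TWIST1, OVOL2 and ESRP2 had no window.

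Resistant and parental libraries of a line, parental lines in pairs, and the difference of changes among lines (F test) were fitted in limma (version 3.58.1, R 4.3.3) (lmFit, then eBayes with trend set), with no pseudocount or filter. P-values are two-sided, adjusted by the Benjamini-Hochberg method over all genes, and calls need an adjusted p under 0.05 and 2-fold (for the F test, the p alone). An exact permutation test on these group sizes cannot go below 0.1. The code was tested on simulated data. Tables and figures were made in Python 3.11.15 with pandas 2.3.3, numpy 2.4.6 and matplotlib 3.10.9. Alternatives were 1 fit of 23 libraries, no trend, a filter at the 25th percentile, recentring, thresholds of 1.5-fold and no fold, and leaving out each library.

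The 10 genes and the 12 lists were chosen with earlier results of these data known. All 10 genes are given in every comparison. CRB3, CLDN4, TMEM30B, PAX8, SOX17, WT1, CDH3, NCALD, HDAC9, KIF5B and BFSP1 were picked with their values in view. Beside these, up to 4 genes called in the most lines could be named from each list. The values of 1 gene that this rule names are not reported here. The 3 most and least correlated genes over the 8 group means were taken for each of the 10.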

Additional observations from a re-analysis of the deposited data

Results flagged for a closer look

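The change from parental to resistant differed among the 4 lines by limma's F test for 9 of the 10 genes, as it did for 75.1% of all genes. The adjusted p was 3.68e-09 for SNAI1, 4.71e-07 for ESRP2, 5.8e-07 for OVOL2, 2.84e-05 for ZEB2, 5.16e-05 for ESRP1, 0.00125 for TWIST1, 0.0111 for ZEB1, 0.0178 for GRHL2 and 0.0455 for GRHL1. SNAI1 rose by 1.48 in EFO-21 and 1.12 in Kuramochi, while its difference in OVSAHO was -0.24. OVOL2 fell in OV-90, Kuramochi and OVSAHO and differed by 0.37 in EFO-21. TWIST1 fell by 2.02 in OV-90 and its differences in the other lines lay between -0.59 and 0.08. The call was lost without library 2 for ZEB1 (0.069), without library 6, 16 or 18 for GRHL2 (0.0512, 0.0516 and 0.0517), and without any 1 of 14 of the 23 libraries for GRHL1 (up to 0.108), and SNAI2 was called without library 2 (0.0412).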

How the results depend on the processing

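No paired analysis was possible because the columns carry no replicate numbers. Depth is unknown, and the spread between libraries is the sole measure of precision. A fit of 23 libraries and a fit with no mean-variance trend ended no call. Recentring ended none either, but it could change little, since every library had a median of 6.01. Thresholds of 1.5-fold or no fold only loosen the limit and could not end a call. Of the results under settings other than leaving out a library, 554 kept their side and 17 passed the threshold in addition. These counts include the settings that could end no call. With 1.5-fold or no fold, OVSAHO and EFO-21 parental lines differed in 8 of the genes. Keeping genes above the 25th percentile tests fewer genes, 2 to 6 of the 10. It left 1 call in OV-90, 3 in Kuramochi, 1 in OVSAHO and 1 in EFO-21, 5, 3 and 4 in the pairs of OV-90 with Kuramochi, OVSAHO and EFO-21, 4 and 3 in those of Kuramochi with OVSAHO and EFO-21, 2 between OVSAHO and EFO-21, and 5 genes whose change differed among lines.

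Leaving out a library gave 0 to 6 calls in OV-90, 6 in Kuramochi, 2 to 3 in OVSAHO and 3 to 4 in EFO-21, and where it leaves 1 parental OV-90 library, that library is assumed to vary like the resistant ones. Over all genes, OV-90 calls numbered 2397 without library 2, 5975 without 3, and 309, 425 and 356 without 13, 14 and 15, and the cause was not tested. Estimates that turned sign were GRHL2 (-0.51 to 3.15) and SNAI2 (-0.32 to 1.58) in OV-90, TWIST1 in Kuramochi (-0.07 to 0.22), SNAI2 (-0.03 to 0.48) and GRHL2 (-0.11 to 1.72) in OVSAHO, and SNAI2 in EFO-21 (-0.09 to 0.11). Between parental lines they were GRHL2 for OV-90 with Kuramochi (-2.92 to 0.73), OVSAHO (-1.06 to 2.59) and EFO-21 (-2.07 to 1.59), SNAI2 for OV-90 with EFO-21 (-0.37 to 1.53), ZEB1 (-0.01 to 0.41) and GRHL1 (-0.02 to 0.34) for Kuramochi with OVSAHO, and OVOL2 for Kuramochi with EFO-21 (-0.26 to 0.07). None of these was called with all libraries.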

Other observations

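Of 21 genes of the TGF-beta and BMP pathway, which induces several of the repressors, 5 were higher and 0 lower in resistant EFO-21 (median 0.53), 5 and 4 in Kuramochi (median 0.19), 3 and 4 in OV-90 (median 0.22) and 1 and 1 in OVSAHO (median 0.27). Over all genes, 7.11% were higher and 7.15% lower in EFO-21, and 11.8% and 10.6% in Kuramochi. The shares were 9.50% and 6.56% in OV-90 and 3.93% and 3.83% in OVSAHO, and they apply to the lists that follow too. ID1 and ID4, BMP-induced inhibitors of basic helix-loop-helix factors, rose in EFO-21 (1.14 and 1.22) and fell in Kuramochi (-1.71 and -1.82), and ID1 fell in OV-90 (-1.18). The ligand gene BMP2 rose in EFO-21 from a parental mean of 2.75 to 4.92 and in Kuramochi from 0.17, at the bottom, to 4.41. ID3 went from 5.84 to 0.06 in OV-90, from 5.30 to 0.66 in Kuramochi and from 4.19 to 0.02 in OVSAHO, all called with resistant means at the bottom, and was at 0.00 in EFO-21.

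Of 13 splicing regulators other than the ESRP genes, 7 were higher and 0 lower in OV-90 (median 1.18, beside -0.06 for all genes), 3 and 2 in Kuramochi, 1 and 2 in EFO-21, and the median was 0.11 in OVSAHO. RBM24, a regulator of muscle splicing, rose in OV-90 (1.64) and Kuramochi (3.00) and fell in EFO-21 (-2.90). NOVA1 rose in OV-90 (1.69) and EFO-21 (1.44) and fell in Kuramochi (-1.90). CELF2 rose in Kuramochi (2.66) and fell in EFO-21 (-1.53), and MBNL2 rose in OV-90 (1.80) and fell in Kuramochi (-1.12). The means of RBM24 in resistant EFO-21 (1.36) and of CELF2 in parental Kuramochi (1.49) were at the bottom, so those differences are not measured fold changes. Of 13 co-repressors and chromatin partners, SUZ12 (1.16) and RCOR1 (1.56) rose in OV-90 and EZH2 fell in Kuramochi (-1.01). Of 13 genes for the stability of these factors, ATM (1.75) and USP9X (1.56) rose in OV-90.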
